A study of Sus scrofa with 14 samples.

Results

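The genes described here digest sugars at the brush border of the pig jejunum or carry them across the enterocyte. Disaccharidases on the luminal membrane, sucrase-isomaltase (SI) for sucrose and starch fragments and lactase (LCT) for milk sugar, release monosaccharides. The sodium-dependent transporter SGLT1, encoded by SLC5A1, then takes up glucose and galactose, the facilitative transporter GLUT5, encoded by SLC2A5, takes up fructose, and GLUT2, encoded by SLC2A2, passes all of them on to the blood. The sodium pump of the basolateral membrane keeps up the gradient on which SGLT1 depends. Of these 5 genes, 3 had a probe on the array that could be named, 7 probes in all of the 43603 on the array. Probes were taken when the RefSeq accession in the scanner files belongs to a member gene, which gave 5 probes for SLC5A1 (NM_001164021) and 1 for SLC2A2 (NM_001097417). The single SLC2A5 probe carries a transcript contig name (TC555936) and was named through a supplementary table of the study. No probe could be named for SI or LCT, so the digestive enzymes are not analysed here.

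The study asked how digested onion changes gene expression in the intestine, here with the small intestinal segment perfusion (SISP) model, in which loops of the jejunum of a living, anaesthetised pig keep their blood supply while fluid is passed through them. All groups came from male piglets of 5 weeks and 8.2 kg, with segments at 31 to 58% of the length of the small intestine, filled with 20 ml and, after 30 min, perfused with 2 ml every 15 min for 6 h. The groups were Sd, a control digest made with saline instead of onion (7 pigs), YOd, digested yellow onion (pigs 1, 2 and 4), and WOd, digested white onion (pigs 5, 6, 7 and 8). Each pig gave an Sd and an onion segment, 1 array each, 14 arrays in all, so each onion over saline ratio was taken within 1 animal. Before perfusion the onion digests had been diluted in peptone and the control digest, more strongly, in a saline solution that contained glucose, so that onion and diluent cannot be told apart. YOd and WOd were given to different pigs. The scrapings hold all cells of the mucosa, and in them fewer enterocytes and less RNA per enterocyte cannot be told apart.

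Values are processed 1-colour signals divided by the 75th percentile (P75) of their array and given as log2, so that 0 is the P75 and 1 unit is a doubling. Probes well above background made up 50.6% to 70.7% of an array, and the number of arrays limits the precision. On all 14 arrays the 7 sugar transporter probes were well above background. Of the 10 enterocyte markers listed, 6 had a probe and each was saturated on 1 or more arrays, 5 of them on all 14, so that their changes cannot be read. Of the 6 smooth muscle markers, 3 had a probe, and their summed level (P75 = 1) ranged from 19.3 to 38.6 in Sd, from 21.0 to 45.2 in YOd and from 11.4 to 31.2 in WOd. Markers of goblet cells (2 of 6 measured), crypt cells (2 of 6) and leukocytes (4 of 6) were above the floor on 1 or more arrays as well, with overlapping ranges between the groups. Both arrays of a pig lay on 1 slide except in pigs 2 and 7, whose Sd arrays shared another slide and a later scan session. Pig 2 had the most similar pair of arrays, with a median absolute log2 ratio of 0.133 over 20401 probes against 0.237 to 0.316 in the other pigs. The Sd array of pig 7 correlated with 5 other arrays more closely than with the WOd array of the same pig. Values without both pigs are therefore given beside those over 7 pigs.

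GLUT2 (SLC2A2) was slightly lower in the onion segment of 6 of 7 pigs, by less than 1.5-fold in each after division by the P75, and its differences between pigs exceeded those between the segments of 1 pig. In Sd, pig 2 had the lowest log2 level (1.94), followed by pig 4 (2.15), pig 6 (2.28), pig 8 (2.43), pig 5 (2.45), pig 1 (2.78) and, highest, pig 7 (2.90). Pigs 2 and 7, whose Sd arrays shared a slide, were thus at opposite ends. Pigs 1, 2 and 4 had levels of 2.66, 1.79 and 2.00 in YOd. Pigs 5, 6, 7 and 8 had levels of 1.96, 2.29, 2.77 and 2.27 in WOd. The ranges of all 3 groups overlapped, and the order of pigs 1, 2 and 4 was the same in both of their segments. The group means were 2.42 ± 0.34 (SD, n = 7) for Sd, 2.32 ± 0.34 (SD, n = 4) for WOd and 2.15 ± 0.45 (SD, n = 3) for YOd. Neighbours in this order lay closer than 1 SD. These means leave out the pairing. In Sd the YOd pigs had a mean of 2.29 and the WOd pigs of 2.52, so the order also holds differences between pigs. Over 21 pairs of Sd arrays the median absolute difference of SLC2A2 was 0.35, against a median absolute ratio of 0.15 within a pig. Its SD was 0.34 over Sd and 0.15 over the ratios. Over 1966 genes above the floor on all arrays and saturated on none, the median SDs were 0.40 and 0.34. A larger spread between pigs was thus not particular to SLC2A2, and 37.8% of these genes had a smaller SD over Sd.

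**Figure D1:**
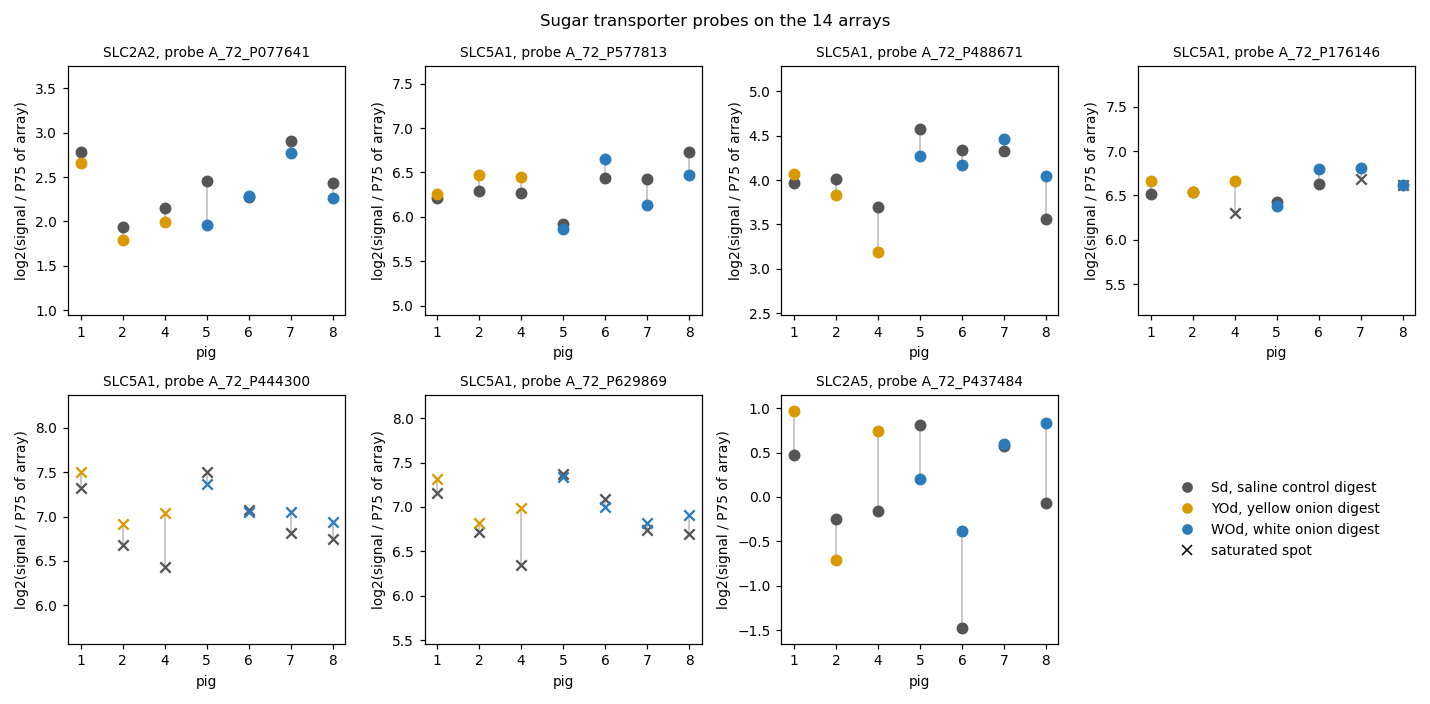
The log2 level (relative to the P75 of the array) of each of the 7 sugar transporter probes in each pig, with grey points for Sd, yellow for YOd and blue for WOd, a line joining the segments of a pig and a cross for a saturated spot. Every axis spans the same 2.8 log2 units but is centred on its own probe, so levels of different probes are not comparable. GLUT2 (SLC2A2) points of a pig lie close together, while 2 of the 5 SLC5A1 probes are saturated on all 14 arrays.

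The within-pig log2 ratios of SLC2A2 were -0.13, -0.15 and -0.15 for YOd/Sd in pigs 1, 2 and 4. For WOd/Sd they were -0.49, 0.01, -0.13 and -0.17 in pigs 5, 6, 7 and 8. The 3 YOd pigs gave nearly equal ratios on this scale, and pig 5 made most of the spread of the WOd pigs. Without scaling between arrays the ratios of pigs 1, 2 and 4 were -0.31, -0.27 and -0.78, so that pig 4 lay past 1.5-fold, and those of pigs 5, 6, 7 and 8 were -0.41, 0.06, -0.21 and -0.35. Averaged over pigs, SLC2A2 had a log2 ratio of -0.14 ± 0.01 (SD, n = 3) in YOd/Sd and of -0.20 ± 0.21 (SD, n = 4) in WOd/Sd. In limma with the pig as a block, the log2 fold change of SLC2A2 in YOd/Sd was -0.14 with an SE of 0.14 and an adjusted p of 0.594. In WOd/Sd it was -0.20 with an SE of 0.15 and an adjusted p of 0.998. Over the 7 pigs (onion/Sd) the log2 fold change of SLC2A2 was -0.17 with an SE of 0.094 (limma, raw p 0.0951, adjusted p 0.657), and without pigs 2 and 7 it was -0.19. The 95% interval of this difference ran from -0.38 to 0.04. A 1.5-fold change, 0.58 on the log2 scale, lay outside that interval and outside those of YOd/Sd (-0.47 to 0.19) and WOd/Sd (-0.56 to 0.17). An exact two-sided sign-flip permutation test over the 7 pigs gave SLC2A2 an unadjusted p of 0.0312, where 0.0156 is the smallest this design allows. The same sign-flip test was run on the 2 SLC5A1 probes saturated on no array. It gave an unadjusted p of 0.609 on A_72_P488671 and a higher one on A_72_P577813. Among 2453 genes, 1.96% were lower in at least 6 of 7 pigs and 14.6% higher in at least 6. The difference between the onions (YOd effect minus WOd effect) was 0.05 for SLC2A2, within its error, with a 95% interval of -0.39 to 0.49 and an adjusted p of 0.966 in limma.

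The scaling of the arrays bears on the sign of such small ratios. All genes together had a median log2 fold change in YOd/Sd of 0.14 after division by the P75, 0.05 after quantile normalization and -0.16 without scaling. Relative to that median, SLC2A2 was at -0.28, -0.24 and -0.29 in YOd/Sd. Division by the P75 shifts all genes of an array alike, so the values with and without it had to be nearly equal. Only the value after quantile normalization was free to differ. Over the 7 pigs SLC2A2 was at -0.26, -0.22 and -0.26 relative to the median of all genes. Unscaled, its log2 fold change over 7 pigs was -0.32 (raw p 0.0149 in limma) with an interval of -0.57 to -0.08, and in YOd/Sd it was -0.45 with an interval of -0.90 to 0.00, which holds a 1.5-fold fall. Over 7 pigs it was -0.19 both after quantile normalization (raw p 0.0387 in limma) and with the log2 values deposited by the authors (raw p 0.0209 in limma).

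Neither SLC2A2 nor the 3 SLC5A1 probes A_72_P577813, A_72_P488671 and A_72_P176146 passed a raw p of 0.05 together with a change over 1.5-fold in any of the 4 comparisons, the selection used by the study. These thresholds were passed by 4.63% of 2464 genes in YOd/Sd, 1.18% of 2467 in WOd/Sd, 1.22% of 2453 in onion/Sd and 3.64% of 2553 for the difference between the onions. With every probe tested on its own, the shares were 4.92%, 1.30%, 0.857% and 5.65%. With Benjamini-Hochberg adjustment, limma over all pigs left 0 genes below 0.05 in all 4 comparisons, against 276, 68, 168 and 110 genes with a raw p below 0.05. Without pigs 2 and 7, a choice made after seeing the data, 77, 2, 14 and 0 genes had an adjusted p below 0.05 in limma. Only pigs 1 and 4 then remained for YOd.

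SGLT1 (SLC5A1) gave no single answer, because its 5 probes, all to 1 transcript accession, differed in how far they could be read. Probes A_72_P444300 and A_72_P629869 were saturated on all 14 arrays, so that no ratio between segments can be given for them. Probe A_72_P176146 was saturated on the Sd arrays of pigs 4, 7 and 8 only. Probes A_72_P577813 and A_72_P488671 were saturated on no array, although the raw intensity of A_72_P577813 reached 65224 on the Sd array of pig 8, close to the ceiling of 65528. The rule of taking the brightest probe of a gene chose A_72_P444300 for SLC5A1, a saturated one. SLC5A1 is therefore described from the remaining probes, and each was tested in the fit over every probe.

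On A_72_P577813 pig 5 had the lowest log2 level in Sd, 5.92, and pig 8 the highest, 6.73, around a median of 6.30. It was 6.26, 6.47 and 6.45 in YOd of pigs 1, 2 and 4, and 5.86, 6.65, 6.14 and 6.47 in WOd of pigs 5, 6, 7 and 8. The ranges overlapped, and pig 5 was lowest in both of its groups. The within-pig log2 ratio was 0.05, 0.17 and 0.19 in pigs 1, 2 and 4, and -0.06, 0.21, -0.29 and -0.26 in pigs 5, 6, 7 and 8. SGLT1 was thus higher in 4 of 7 pigs on this probe, in all 3 with yellow onion and in 1 of 4 with white onion. The Sd spot of pig 8 lay close to the ceiling, so the ratio of -0.26 in that pig may be an upper limit. In limma the log2 fold change of this probe was 0.14 in YOd/Sd (SE 0.14, adjusted p 0.643), and -0.10 in WOd/Sd (SE 0.17, adjusted p 1.00). Over 7 pigs it was 0.00 with a 95% interval of -0.24 to 0.24, and without pigs 2 and 7 it was 0.03. The effects of the onions differed by 0.24 (YOd minus WOd) with an interval of -0.23 to 0.70 and an adjusted p of 0.801 in limma. The sign in YOd/Sd depended on the scaling, since it was -0.17 both after quantile normalization and without scaling.

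On A_72_P488671 pig 8 had the lowest log2 level in Sd, 3.56, and pig 5 the highest, 4.58, around a median of 4.02. It was 4.06, 3.83 and 3.19 in YOd of pigs 1, 2 and 4, and 4.28, 4.17, 4.46 and 4.05 in WOd of pigs 5, 6, 7 and 8. The highest and lowest pigs of the Sd arrays on A_72_P577813 were thus the lowest and highest here. The within-pig log2 ratio was 0.10, -0.19 and -0.52 in pigs 1, 2 and 4, and -0.30, -0.16, 0.14 and 0.49 in pigs 5, 6, 7 and 8. The probe was lower in 4 of 7 pigs, and its ratios in pigs 4 and 8 were of opposite sign. In limma the log2 fold change of this probe was -0.20 in YOd/Sd (SE 0.17, adjusted p 0.575), and 0.04 in WOd/Sd (SE 0.19, adjusted p 1.00). Over 7 pigs it was -0.06 with an interval of -0.36 to 0.23, and without pigs 2 and 7 it was -0.08.

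The 2 unsaturated SLC5A1 probes did not move together. Across the 7 Sd arrays Pearson's r between them was -0.58 (exact permutation p 0.165) and Spearman's rho -0.32 (exact permutation p 0.498). Without pigs 5 and 8, the 2 arrays farthest from the median, r was 0.86, so the relation rested on those pigs. For the 7 within-pig ratios r was -0.73 (exact permutation p 0.0599, adjusted p 0.180 over 6 pairs) and rho -0.61 (exact permutation p 0.167, adjusted p 0.593), and r was -0.50 without the 2 farthest pigs. After division by the P75 the probes had ratios of opposite sign in pigs 2, 4, 6, 7 and 8 and of the same sign in pigs 1 and 5. Under the other scalings the mean changes of both were below 0 in YOd/Sd and over the 7 pigs, but not in WOd/Sd. In WOd/Sd A_72_P488671 was at 0.03 after quantile normalization and 0.01 without scaling, and A_72_P577813 at -0.22 and -0.13. In YOd/Sd A_72_P488671 was at -0.28 and A_72_P577813 at -0.17 after quantile normalization, and at -0.51 and -0.17 without scaling. Over the 7 pigs they were at -0.11 and -0.20 after quantile normalization, and at -0.21 and -0.15 without scaling. Neither probe passed the test. On A_72_P176146, the log2 ratio was 0.15, 0.00, -0.05 and 0.17 in pigs 1, 2, 5 and 6, where neither spot was saturated. In pigs 4, 7 and 8 its Sd spot was saturated, so 0.37, 0.12 and 0.00 are upper limits there.

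**Figure D2:**
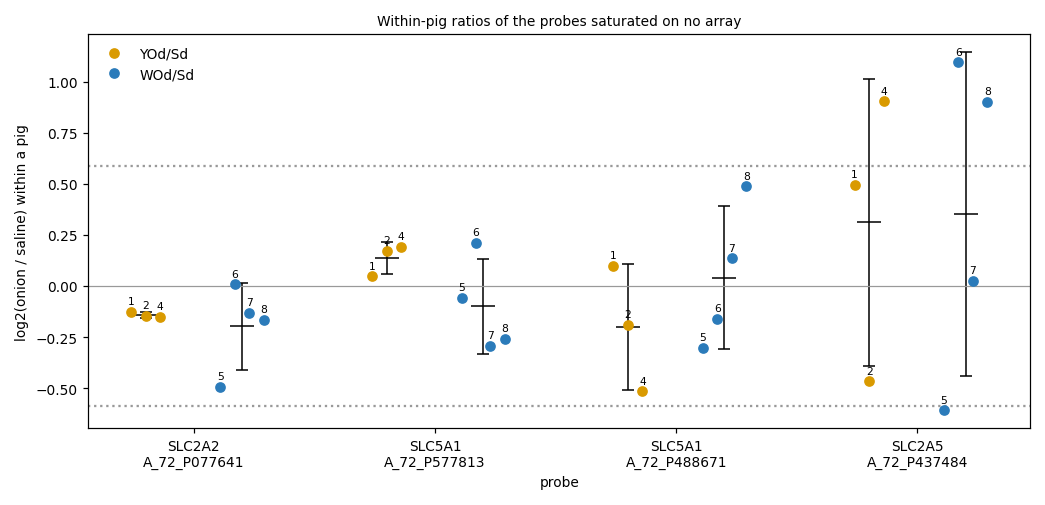
Within-pig log2 ratio of onion over saline for the 4 probes saturated on no array, with 1 point per pig (number beside it), yellow for YOd/Sd, blue for WOd/Sd, a black bar for the mean with its SD, and dotted lines at a 1.5-fold change. SLC2A2 lies at or below 0 within the dotted lines, apart from a ratio of 0.01 in pig 6. The 2 SLC5A1 probes lie on opposite sides of 0 in 5 of 7 pigs on this scale, and SLC2A5 spreads from -0.61 to 1.09.

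On probes at the ceiling of the scanner the scaled ratio lay near the ratio of the P75 values. Across the array, 454 probes were saturated on all 14 arrays, among them those of the brush border peptidases ANPEP and DPP4, of the apolipoproteins APOA1 and APOA4 and of the fatty acid binding protein FABP2. Their median log2 ratio within a pig was 0.63 in pig 4, where the P75 was 794.6 in Sd and 515.3 in YOd, a log2 ratio of 0.62. In pig 5 the median ratio of these probes was -0.08, against a log2 P75 ratio of -0.09. The scaled log2 ratios of the saturated SLC5A1 probes ranged from 0.62 to 0.64 in pig 4 and from -0.13 to -0.03 in pig 5. They departed further from the log2 P75 ratio in pig 2 (0.10 to 0.23 against 0.12) and pig 7 (0.08 to 0.23 against 0.08). The log2 P75 ratio of Sd over onion averaged 0.31 over the YOd pigs and 0.03 over the WOd pigs, and the saturated probes had median log2 fold changes of 0.31 and 0.03.

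**Figure D3:**
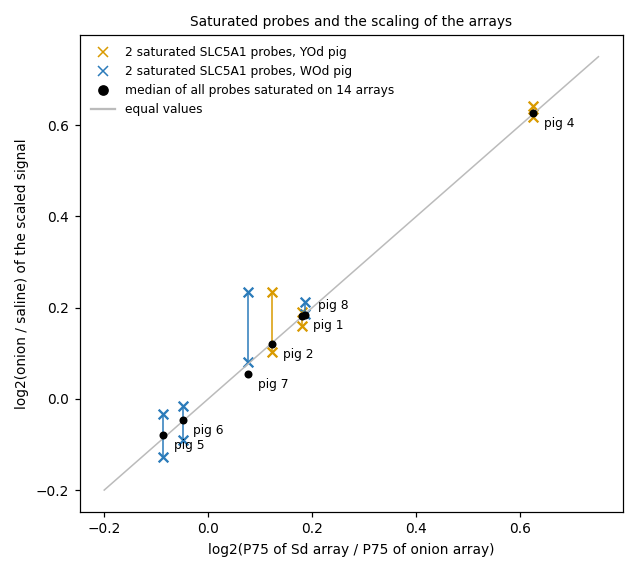
For each pig, the log2 ratio of the P75 of the Sd array over that of the onion array (horizontal) against the scaled log2 ratio of onion over saline (vertical), with crosses for the 2 saturated SLC5A1 probes and black points for the median of the 454 probes saturated on all 14 arrays. The black points follow the line of equal values, from -0.08 in pig 5 to 0.63 in pig 4.

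GLUT5 (SLC2A5) was higher in the onion segment of some pigs and lower in that of others. Its probe entered the study's supplementary table because of the size of these ratios, so its values are given without a test. In Sd its log2 level was 0.47, -0.25 and -0.16 in pigs 1, 2 and 4, and 0.81, -1.47, 0.57 and -0.07 in pigs 5, 6, 7 and 8. The level thus differed 4.86-fold between the Sd segments of pigs 5 and 6, both given WOd in their other segment. In YOd it was 0.97, -0.71 and 0.74 in pigs 1, 2 and 4, and in WOd it was 0.20, -0.38, 0.60 and 0.83 in pigs 5, 6, 7 and 8. The ranges overlapped, and the means were -0.01 ± 0.76 (SD, n = 7) for Sd, 0.33 ± 0.91 (SD, n = 3) for YOd and 0.31 ± 0.53 (SD, n = 4) for WOd. The within-pig log2 ratio was 0.50, -0.47 and 0.90 in pigs 1, 2 and 4, and -0.61, 1.09, 0.03 and 0.90 in pigs 5, 6, 7 and 8. After division by the P75, GLUT5 was thus higher under onion in 5 of 7 pigs. It lay past 1.5-fold upward in pigs 4, 6 and 8 and downward in pig 5. The mean of these 7 ratios was 0.34 ± 0.69 (SD, n = 7). It became 0.56 without pigs 2 and 7, 0.21 without pig 6, and 0.18 without scaling between arrays. Unscaled, GLUT5 was lower in 3 of 7 pigs, with log2 ratios of 0.32, -0.59 and 0.28 in pigs 1, 2 and 4. Pigs 5, 6, 7 and 8 had -0.52, 1.14, -0.05 and 0.71. Pigs 6 and 8 then lay past 1.5-fold upward and pig 2 downward. Leaving out the scaling moved the mean of the YOd pigs from 0.31 to 0.0018, and that of the WOd pigs from 0.35 to 0.32. Over 21 pairs of Sd arrays the median absolute difference of SLC2A5 was 0.73, against a median absolute ratio of 0.61 within a pig. Both values are after division by the P75. The probe that lay nearest to SLC2A5 in pattern over the 7 Sd arrays was that of LMNA, a nuclear lamina protein, with Pearson's r of 0.98.

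Across the Sd segments SLC2A2 was not tied to SLC5A1 in a way that these 7 arrays could show. SLC2A2 correlated with r of 0.03 with SLC5A1 on A_72_P577813 (exact permutation p 0.950) and 0.24 on A_72_P488671 (exact permutation p 0.581), and rho was -0.14 (exact permutation p 0.783) and 0.21 (exact permutation p 0.662). The adjusted p over 6 pairs of unsaturated probes was 0.950 and 0.872 for r and 0.783 for both rho values. As a description without a test, since its probe was chosen by its ratios, SLC2A5 had Pearson's r of 0.54 and Spearman's rho of 0.79 with SLC2A2 over the 7 Sd arrays. For the onion over saline ratios of SLC2A2 and SLC2A5, r was 0.68 over the 7 pigs and -0.41 without the 2 pigs farthest from the median, so that value rested on those pigs.

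Among 2182 genes above the floor on all 14 arrays, those with a pattern over the 7 Sd arrays most like SLC2A2 were CROT (r 0.93), UFL1 (r 0.93) and PEX2 (r 0.91), of which CROT and PEX2 act in peroxisomes. Of the genes compared, 0.183% had an r above 0.9 with SLC2A2. That share was 0.183% for SLC5A1 on A_72_P577813, 0.504% on A_72_P488671 and 1.33% for SLC2A5. How many such genes unrelated patterns would give over 7 arrays was not tested. The genes most like SLC5A1 on A_72_P577813 were ARPC2, of the actin-nucleating Arp2/3 complex (r 0.94), DPYD, which degrades pyrimidines (r 0.91), and LOC100627283 (r 0.91). Spearman's rho was lower for DPYD (0.61) and LOC100627283 (0.68). Those most like A_72_P488671 were the transcription factor STAT3 (r 0.95), PNISR (r 0.93) and the kinase JAK1 (r 0.93). After LMNA, the genes most like SLC2A5 were DLD, the lipoamide dehydrogenase of mitochondrial complexes (r 0.95), and GNPAT, of ether lipid synthesis (r 0.95). These r values were picked as the highest of 2182 genes and describe 7 arrays.

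The wider sugar pathway was listed as brush border disaccharidases, transporters, sugar metabolism, sodium pump and regulators. None of the 4 disaccharidases had a nameable probe. Of 83 genes listed, 34 had a nameable probe and all 34 were tested, 24 of them saturated on no array. The 34 include SLC2A2 and SLC5A1, the latter read from its saturated brightest probe. In YOd/Sd, 1 rose and 0 fell past the thresholds. In WOd/Sd, 1 rose and 1 fell, in onion/Sd 1 rose and 0 fell, and for the difference between the onions 1 was lower. Of all genes, 3.65% rose and 0.974% fell in YOd/Sd, 0.77% and 0.405% in WOd/Sd, 0.938% and 0.285% in onion/Sd, and 2.35% and 1.29% were higher and lower for the difference. The raw p was below 0.05 for 2, 4, 4 and 1 of the 34 genes in limma. Of every gene tested, this held for 276 of 2464, 68 of 2467, 168 of 2453 and 110 of 2553. The counts for YOd/Sd and onion/Sd include TXNIP, whose change cannot be read because it was saturated on 9 arrays. With saturated genes kept on both sides, the 34 tested genes had median log2 fold changes of 0.10 (YOd/Sd) and 0.09 (WOd/Sd). The background medians were then 0.14 and 0.04. The 24 unsaturated genes had medians of 0.02 and 0.10. Reading each background gene from its brightest probe saturated on no array gave 0.12 and 0.04.

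**Figure D4:**
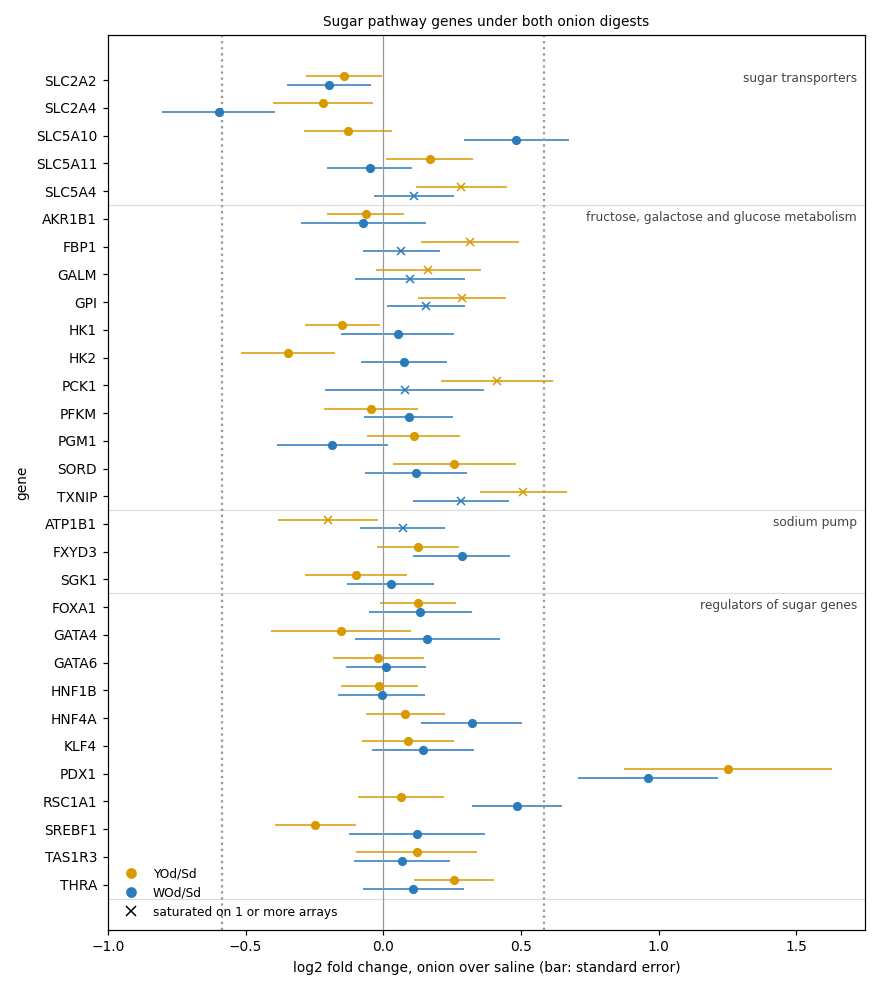
Log2 fold change of onion over saline with its standard error for 30 genes of the sugar pathway lists, yellow for YOd/Sd and blue for WOd/Sd, with crosses for genes saturated on 1 or more arrays and dotted lines at a 1.5-fold change. SLC5A1 and LDHA are left out because they were saturated on all 14 arrays, and 2 more genes are not shown. Only PDX1 in both comparisons and SLC2A4 in WOd/Sd lie past a dotted line.

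The other sugar transporters measured were SLC2A4, SLC5A4, SLC5A10 and SLC5A11. SLC2A4 encodes GLUT4, the insulin-responsive glucose transporter of muscle and fat. Its within-pig log2 ratio was 0.00, 0.00 and -0.65 in pigs 1, 2 and 4, and -0.06, -1.19, -0.56 and -0.58 in pigs 5, 6, 7 and 8. SLC2A4 fell by 0.60 on the log2 scale in WOd/Sd (SE 0.21, raw p 0.0229, adjusted p 0.998 in limma), and the call was lost in 7 of 18 alternatives, among them without pig 6 (-0.40) and without pig 8 (raw p 0.0695), and with the mean over its probes (-0.22). The lowest sum of smooth muscle markers was that of a WOd segment, 11.4, and their part in this result was not tested. SLC5A10, a mannose and fructose transporter related to SGLT1, had ratios of 0.00, -0.42 and 0.03 in pigs 1, 2 and 4, and 0.29, 0.72, 0.91 and 0.02 in pigs 5, 6, 7 and 8. The effects of the onions on it differed by -0.61 (YOd minus WOd, SE 0.26, raw p 0.0458, adjusted p 0.845 in limma). That call was lost with the mean over its probes (-0.13) and when pig 1, 2, 4, 6 or 7 was left out (-0.69 to -0.47), and without both pigs 2 and 7 the difference was -0.33. The reference lists SLC5A1 among the older names of this gene, so which transcript the SLC5A10 probe reads is uncertain.

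Of the enzymes of sugar metabolism, 12 of 26 listed had a probe, of which 6 were saturated on 1 or more arrays, and 0 passed the thresholds in any comparison. The 6 that were saturated on no array lay between -0.35 and 0.26 on the log2 scale in YOd/Sd, the hexokinase HK2 lowest and the sorbitol dehydrogenase SORD highest. The ratio of HK2 was exactly 0 in pigs 1 and 7, as 2 values at the floor give. In WOd/Sd the 6 genes lay between -0.18 and 0.12. TXNIP, which restrains glucose uptake and is induced by glucose, was saturated on 9 of 14 arrays, so that its change cannot be read. Of the sodium pump list, 4 of 5 genes had a probe, of which 2 were saturated on 1 or more arrays, and 0 passed.

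Of 25 regulators of sugar genes listed, 12 had a probe, and PDX1, a homeobox factor of duodenum and pancreas, was the single one past the thresholds. Its within-pig log2 ratio was 1.78, -0.02 and 2.00 in pigs 1, 2 and 4, and 0.93, 1.41, 0.05 and 1.46 in pigs 5, 6, 7 and 8. The ratio was near 0 in pigs 2 and 7, with arrays on separate slides, and high in the other 5. PDX1 rose by 1.25 in YOd/Sd (SE 0.38), by 0.96 in WOd/Sd (SE 0.25) and by 1.09 over the 7 pigs (SE 0.25, raw p 0.00124, adjusted p 0.630 in limma). With the mean over its probes the change over 7 pigs was 0.58, and in YOd/Sd the call was lost without pig 1 (0.99) or pig 4 (0.88). Genes that mark position along the intestine varied as well. SLC46A1, the proximal folate transporter, had log2 ratios of 1.60, -0.02 and 1.47 in pigs 1, 2 and 4, and 1.82, 1.05, -0.83 and 0.81 in pigs 5, 6, 7 and 8. SLC10A2, the ileal bile acid transporter, had ratios of -1.01, 0.00 and -2.57, and -1.58, -0.51, 1.18 and -0.69. It was above the floor on 12 of 14 arrays, so the floor limits some of these ratios. Past the thresholds, SLC46A1 rose by 1.02 in YOd/Sd (a call lost without pig 1, 0.73, or pig 4, 0.79) and by 0.84 over the 7 pigs (lost without pig 4, 0.74), and SLC10A2 fell by 1.19 in YOd/Sd (lost without pig 4, -0.51). The other proximal markers with a probe did not pass, with log2 fold changes of -0.15 and -0.02 in YOd/Sd, nor did the distal marker FABP6 (0.23 in YOd/Sd, with ratios from -6.04 in pig 6 to 1.53 in pig 5). The summed level of the 3 proximal markers with a probe ranged from 14.3 to 33.8 in Sd. It ranged from 23.2 to 87.4 in YOd and from 11.5 to 52.5 in WOd. The sum of the 2 distal markers was 0.314 to 91.2 in Sd, 0.260 to 14.2 in YOd and 0.231 to 6.44 in WOd. These sums add values that are not log-transformed, so the brightest gene weighs most. SLC46A1 reached a log2 level of 6.24, against at most 3.60 for CYBRD1 and -1.60 for GATA4. FABP6 reached 6.47, against 1.24 for SLC10A2. The proximal sum thus largely repeats SLC46A1. Of the 6 enteroendocrine markers, 4 had a probe. Their summed level ranged from 7.50 to 21.1 in Sd, from 14.7 to 33.2 in YOd and from 9.28 to 22.2 in WOd. CCK weighed most in this sum, with a log2 level of up to 4.88 against at most 2.33 for GCG and 0.97 for CHGB. Among these 4 markers the hormone CCK rose by 0.92 on the log2 scale in YOd/Sd (raw p 0.0124, adjusted p 0.387 in limma). That call was lost without pig 1 (0.60) or pig 4 (0.84). The others did not pass, with log2 fold changes of -0.29 for the hormone gene GCG, and 0.13 and 0.22 for the granins CHGA and CHGB. The part of these markers in the PDX1 result was not tested. HNF4A, a nuclear receptor of enterocytes and hepatocytes, had a log2 fold change of 0.08 in YOd/Sd and 0.32 in WOd/Sd. RSC1A1, a regulator of SGLT1, had a log2 fold change of 0.30 over 7 pigs (raw p 0.0348, adjusted p 0.657 in limma), under 1.5-fold.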

How the data were processed

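Mucosal scrapings of 14 SISP segments of 7 pigs were hybridised to custom 1-colour Agilent pig arrays, 1 array per segment, grouped by the sample titles. The authors deposited Feature Extraction files with the processed signal, a background-subtracted intensity that is not log-transformed, with median intensities, local background and flags. They also deposited log2 values for part of the probes, whose normalization the sources used here do not state and which served as an alternative. Spots of a probe were averaged without outlier flags, divided by the P75 of the array, which ranged from 385.4 to 794.6, and floored at the pooled 40th percentile (log2 -4.43). Accessions were named through the Sscrofa11.1 gene table, used for names only: 6686 of 43603 probes matched, giving 3020 genes. The brightest probe stood for a gene. Spots at the ceiling of the scanner have nearly equal signals, so division by a percentile leaves their ratios near the ratio of the percentiles.

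limma 3.58.1 (R 4.3.3) was run on genes above the floor on at least as many arrays as the smaller group held, with the pig as a block, as replicate numbers are pig numbers. Deviations from the group means over 2453 genes correlated between both arrays of each pig (r from 0.497 to 0.714). Thresholds were a raw p of 0.05 and 1.5-fold, with Benjamini-Hochberg values beside them. Exact permutation tests and figures used Python 3.11.15. The scripts were tested on simulated data.

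The members, lists and tests were chosen with earlier results of these data known. Named were all members and probes, list genes past the thresholds, and per member the 3 genes of highest Pearson's r over Sd. TXNIP, HK2, SORD, HNF4A, RSC1A1, CCK, GCG, CHGA, CHGB, FABP6, SLC46A1 and SLC10A2 were named after their values were seen. Marker lists were enterocyte, crypt, goblet, enteroendocrine, smooth muscle, leukocyte, proximal and distal genes. Alternatives changed the normalization, background correction, floor, filter, probe of a gene, source of values, replicate block, slide block, saturated spots and the pigs included. No column of other samples was present. Pig 3 and the other intestine models were not analysed here, some list genes are counted but not reported singly, and no sequences are shown.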

Additional observations from a re-analysis of the deposited data

Results flagged for a closer look

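Of 16 sets of member levels and ratios checked for a sample standing apart, 1 had one, and chance gives about 1 in 20. The SLC2A2 onion/Sd log2 ratio of pig 5, -0.49, lay apart from the other 6 pigs, with a gap of 0.65 of the whole range against a limit of 0.568. Without pig 5 the log2 fold change of SLC2A2 over the remaining pigs was -0.12. The effect of YOd on SLC5A10 was below that of WOd by a test of the difference itself in limma (-0.61, raw p 0.0458, adjusted p 0.845), and the call was lost in 13 of 21 alternatives, among them without pig 1, 2, 4, 6 or 7 (-0.69 to -0.47).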

How the results depend on the processing

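SLC2A2 and the unsaturated SLC5A1 probes passed both thresholds under no alternative run, and SLC2A5 is described without a test. SLC2A2 stayed below 0 in YOd/Sd, WOd/Sd and onion/Sd under each of them, from -0.20 to -0.12 in onion/Sd with 1 pig left out, and without the replicate block its log2 fold change in onion/Sd was -0.17 (raw p 0.379 in limma). Without the filter its raw p in limma was 0.00294 in YOd/Sd and 0.0189 in onion/Sd, at unchanged values. Without the replicate block the calls of PDX1, SLC2A4, SLC5A10, CCK, SLC46A1 and SLC10A2 were lost. The difference of SLC2A2 between the onions was 0.05 and turned to -0.0044 after quantile normalization, -0.22 without scaling and -0.015 with the authors' log2 values, and ran from -0.045 to 0.12 with 1 pig left out. SLC5A1 on A_72_P577813 turned to -0.17 in YOd/Sd both after quantile normalization and without scaling, and its difference between the onions to -0.041 without scaling. In onion/Sd it was 0.00 and turned to -0.20 after quantile normalization, -0.15 without scaling, -0.047 after normexp and -0.021 with the authors' log2 values, and ran from -0.034 to 0.050 with 1 pig left out. On A_72_P488671 the values with 1 pig left out ran from -0.11 to 0.15 in WOd/Sd, the lowest without pig 8, and from -0.16 to 0.011 in onion/Sd, the highest without pig 4. SLC2A4 in YOd/Sd turned to 0.037 after normexp. SLC5A10 in YOd/Sd turned to 0.089 with the mean over its probes and to 0.016 without pigs 2 and 7, the same fit as the slide block. With 1 pig left out, SLC5A10 in YOd/Sd ran from -0.21 to 0.016, and the difference between the onions ran from -0.084 to 0.93 for PDX1 and from -0.21 to 0.82 for SLC46A1.

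Counts of all genes past the thresholds moved more. In YOd/Sd the 114 genes became 63 after quantile normalization, 66 after normexp, 20 without the filter, 10 with the authors' log2 values, 20 without the replicate block and 1300 probes when every probe was counted. Without scaling they were 102, with 7 up and 95 down against 90 and 24. With the slide as a block, or without pigs 2 and 7 (chosen after seeing the data), they were 329, from the same fit under both names. With 1 pig left out they were 57 (pig 1), 59 (pig 4) and 329 (pig 2), the last again that same fit. In WOd/Sd the 29 genes became 12 after normexp, 51 with the floor at the 20th percentile, 17 without the filter, 12 with the authors' values, 10 without the block, 339 probes, 89 with the slide block and without pigs 2 and 7, and from 44 (pig 6) to 89 (pig 7) with 1 pig left out (46 without pig 8, 56 without pig 5). In onion/Sd the 30 genes became 16 without scaling (4 up and 12 down against 23 and 7), 19 after normexp, 47 with the lower floor, 16 with the authors' values, 11 without the block, 223 probes, 80 with the slide block and without pigs 2 and 7, and from 17 (pig 1) to 50 (pig 7) with 1 pig left out. For the difference between the onions the 93 genes became 51, 47, 38 and 5 after normexp, without the filter, with the authors' values and without the block, then 103 (7 up, 96 down) without scaling, 1601 probes, 197 with the slide block and without pigs 2 and 7, and from 44 (pig 4) to 157 (pig 2), with 50 without pig 1. The cause of these moves was not tested. No pair of SLC2A2 and SLC5A1 probes reached an adjusted p of 0.05 under any alternative (0 in each). Reading each gene from the brightest probe saturated on no array was also chosen after seeing the data. Saturation limits SLC5A1, and 3 or 4 pigs per onion limit the rest.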
